A study of Mus musculus with 18 samples.

Results

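Among 18 colon libraries from ICR mice, an outbred laboratory stock, 6 drew 12% or more of their counts from the mitochondrial chromosome, and these 6 are described here against the other 12. The share was the sum of counts on chromosome MT over the library total, so it chose the 6 libraries and carries no test between them and the rest. The mice had received fermented green tea (Jinhua Hecha) or a compound Suanzoren capsule by stomach tube, or saline, for 44 days, with 6 libraries per treatment. Library names split each treatment into 2 sets of 3, C and X, and the labels do not say what the letters mean. All 9 set X libraries held more transcript of the Y chromosome genes Uty and Ddx3y than all 9 set C libraries (values below). Any contrast of the sets therefore also follows this difference. The tea libraries with a high share were JHHCGC_48 and JHHCGX_256. FFZRC_24 was the only capsule library with a high share, and the saline ones were NCC_17, NCX_134 and NCX_147. High-share libraries therefore made up 2 of 6 tea, 1 of 6 capsule and 3 of 6 saline libraries, and the capsule X group alone held none. The study's description counts 3 mice for each treatment, while no label ties a library to its mouse, so p-values below measure the spread between libraries, which may be technical.

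The wall of the colon is layered: an epithelium of absorptive colonocytes and mucus-secreting goblet cells, renewed from stem cells at the base of the crypts, lies on a lamina propria rich in immune cells, and this mucosa is wrapped in smooth muscle that houses the enteric nervous system. Along its length the colon differs too, and genes such as Hoxb13 mark its distal end in the mouse. Mitochondrial transcripts are polyadenylated and are captured by oligo(dT) beside those of nuclear genes. In whole tissue, fewer cells of a type and less RNA per cell cannot be told apart.

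The shares of the 6 libraries were 24.9% in FFZRC_24, 18.9% in NCX_134, 17.4% in NCX_147, 14.8% in NCC_17, 13.01% in JHHCGC_48 and 12.2% in JHHCGX_256. The other 12 libraries ran between 5.48% and 11.1%, with a median of 6.501%. The values just below the threshold, 11.1% in FFZRX_268, 10.4% in FFZRX_238 and 9.92% in JHHCGX_129, followed directly on JHHCGX_256, so the share formed a gradient with no clear gap at 12%. A further 2.99% to 6.10% of counts in the high-share libraries and 1.23% to 2.89% in the rest were assigned to 4 nuclear copies of mitochondrial genes. Counts of the copy Gm28437 were 0.993 to 1.006 times those of mt-Co3, so such reads may be mitochondrial. With the copies added, the share was 13.96% in FFZRX_268, 12.96% in FFZRX_238 and 12.65% in JHHCGX_129. These libraries would then also pass 12%, so the division depends on how the copies are counted. These copies and the 37 genes of chromosome MT were left out of every level below, which are counts per 1000000 remaining counts (CPM), scaled by the trimmed mean of M-values.

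**Figure D1:**
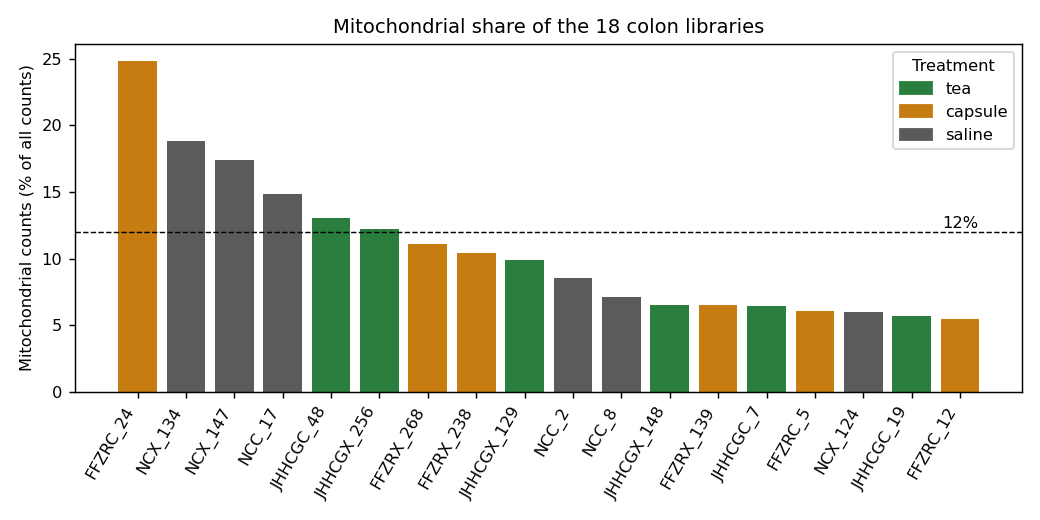
Mitochondrial counts as a percentage of all counts (vertical axis) in each of the 18 libraries (bars, coloured by treatment), from highest to lowest; the dashed line marks 12%. The 6 libraries above it run between 12.2% and 24.9%, and the nearest library below it stands at 11.1%.

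Libraries held between 59206980 and 76830278 counts. After the mitochondrial genes and copies were left out, 48217430 to 59272953 counts remained in high-share libraries and 53524649 to 69358469 in the rest, with 21484 to 24123 and 23153 to 25039 genes detected. All 18 libraries carried the epithelial adhesion gene Epcam, which overlapped widely at 1357 to 3178 CPM in high-share libraries and 1569 to 2528 CPM in the rest, and the hindgut gene Hoxb13, at 54.6 to 306 CPM in high-share libraries and 132 to 505 CPM in the rest. Transcripts of other tissues were present in some libraries of both kinds. Surfactant gene Sftpc exceeded 10 CPM in 2 of 6 high-share and 9 of 12 other libraries, and cartilage collagen gene Col2a1 in 1 of 6 and 4 of 12. The summed level of the 8 lung markers was 1.59 to 306.6 CPM in high-share libraries and 2.002 to 356.6 CPM in the rest, and values from the libraries without lung or cartilage transcripts are given below.

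Of 22315 genes tested, 332 (1.49%) were higher in all 6 high-share libraries than in all 12 others, and 451 (2.02%) were lower without overlap. Under CPM with no further scaling these counts were 159 and 657, so the share of higher genes among them was 42.4% with scaling and 19.5% without; in the deposited FPKM values it was 7.73%. The median log2 ratio over all genes was -0.02 as scaled, -0.16 with no further scaling and -0.28 in FPKM, and ratios of lists are to be read against these shifts. In 5 treatment-and-set groups both kinds of library occurred; 2348 genes (10.5%) were higher and 2601 (11.7%) lower in high-share libraries within all 5. Ratios are log2 ratios of median CPM + 0.1, high-share over rest. They carry no test, because the libraries were divided by a value from the same counts.

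Genes of the muscle coat were higher in high-share libraries and goblet cell genes lower. All 23 smooth muscle genes had a positive ratio, with a median of 1.32 and a range of 0.98 to 1.51. 4 of the 23 did not overlap between the kinds (Mylk, Tpm1, Cald1 and Cacna1c), and 21 were higher within all 5 groups. The summed level of the 23 was 19385, 32015 and 65099 CPM (lowest, median, highest) in high-share libraries and 5816, 13196 and 22155 CPM in the rest. NCX_147 held the most and NCC_17 the least among the high-share libraries, and NCC_17 lay below FFZRX_268 and JHHCGC_7. Among the 4 high-share and 3 other libraries without lung or cartilage transcripts the median ratio was 2.48, that of the enteric neuron genes described next was 2.72 and that of the goblet cell genes was -3.35. Treatment was unbalanced there: the 3 others were FFZRC_5, FFZRC_12 and JHHCGX_148, while the 4 included the saline libraries NCX_134 and NCX_147. FFZRC_12 and FFZRC_5 held the lowest smooth muscle sums of all 18 libraries, 5816 and 7038 CPM, so these ratios also reflect which libraries remain.

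Myh11 (ENSMUSG00000018830, chr16:14194535-14291372, minus strand, GRCm38), the smooth muscle myosin heavy chain, stood at 2292, 3695 and 8816 CPM in high-share libraries and at 460.4, 1412 and 2297 CPM in the rest, a log2 ratio of 1.39. The kinds overlapped by 1 library at each end, since NCC_17 was just below FFZRX_268. Mylk, the kinase that starts smooth muscle contraction, had no overlap, at 937, 1333 and 2703 CPM in high-share libraries and 186, 476 and 720 CPM in the rest. Its log2 ratio was 1.49. Lmod1, an actin filament nucleator of smooth muscle, and Kcnmb1, a subunit of its calcium-activated potassium channel, both had ratios of 1.51, the highest of the list.

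Neurons of the gut wall gave a similar picture with wider overlap. All 19 enteric neuron genes had a positive ratio (median 1.19), none without overlap, and 9 were higher within all 5 groups. Snap25, a protein of synaptic vesicle fusion, stood at 46.1, 63.3 and 133.8 CPM in high-share libraries and 9.53, 22.01 and 48.2 CPM in the rest. Elavl4, a neuronal RNA-binding protein, had the highest ratio of the list, 1.57. The lowest was 0.57 for Vip, a relaxing neuropeptide. NCX_134 and NCX_147 held the highest sums of these genes, 1932 and 1874 CPM, whereas JHHCGC_48, NCC_17 and FFZRC_24 held 569, 729 and 872 CPM, within the range of the rest (170 to 998.0 CPM). All 8 enteric glia genes were positive too (median 0.99), but Erbb3 and L1cam on that list are also made elsewhere in the gut.

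Other cells of the wall did not share this rank. Fibroblast genes had a median ratio of 0.30, with 14 of 15 positive and none without overlap, and blood endothelium genes a median of -0.34, with 9 of 11 negative. Interstitial cells of Cajal, the pacemakers of gut movement, were marked by 4 genes with a median of 0.72, but the median of their summed level was lower in high-share libraries, at 212, 258 and 463 CPM against 169, 280.4 and 366 CPM in the rest (lowest, median, highest).

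**Figure D2:**
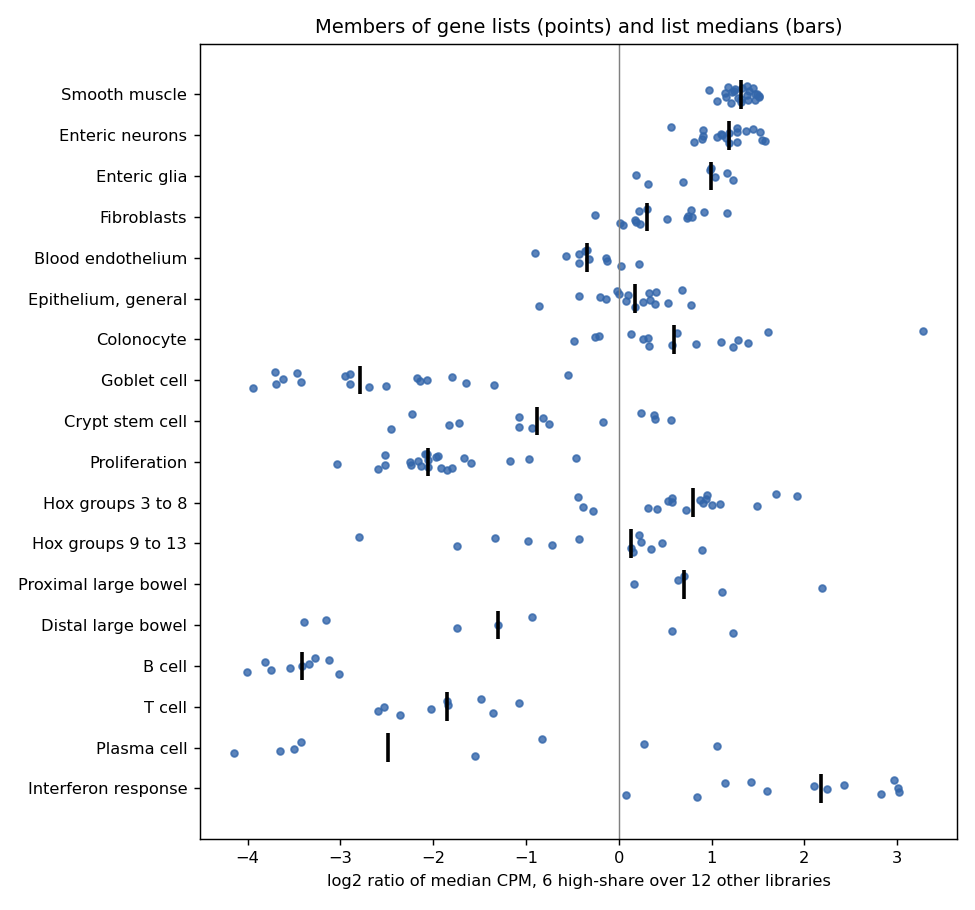
Log2 ratio of median CPM + 0.1, 6 high-share over 12 other libraries (horizontal axis), for each tested member (point) of 18 gene lists; black bars are list medians. Smooth muscle members cluster between 0.98 and 1.51, all goblet cell members lie below 0, and the Hox lists spread to both sides.

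In the epithelium, all 18 goblet cell genes had a negative ratio, with a median of -2.79. 8 of the 18 were lower without overlap and 12 were lower within all 5 groups. Their summed level was 502, 1099 and 1722 CPM in high-share libraries and 2822, 11277 and 21069 CPM in the rest, so the kinds did not overlap on the sum. The nearest libraries were JHHCGC_48 among the 6 and FFZRX_268, the library just under the 12% threshold, among the 12.

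Muc2 (ENSMUSG00000025515, chr7:141690340-141754690, plus strand), the gel-forming mucin of the colon, stood at 35.2, 152 and 401 CPM in high-share libraries and 446, 1872 and 3396 CPM in the rest. No library overlapped, and the log2 ratio was -3.62. Zg16 (ENSMUSG00000049350, chr7:127050156-127087286, minus strand), a lectin of goblet cell granules that binds bacteria, stood at 25.5, 130 and 190 CPM in high-share libraries and 296, 1686 and 4996 CPM in the rest, a ratio of -3.70. Agr2, a disulfide isomerase needed for mucin assembly, had the lowest ratio of the list, -3.94, at 13.5 to 54.8 CPM in high-share libraries and 101 to 690 CPM in the rest. Clca1, a protease of the mucus layer, had a ratio of -3.70 but overlapped through JHHCGX_129. The regulators of the lineage were lower too: Atoh1, which commits cells to the secretory fate, had a ratio of -2.69 and Spdef, which matures goblet cells, -1.79, both without overlap.

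Colonocyte genes did not share this direction. 13 of 16 had a positive ratio, the median was 0.60 and 8 were higher within all 5 groups, although the median was -0.13 in set X alone. That value pools the treatments, capsule X included, which had no high-share library. Within saline X and within tea X the median was 0.47 and 0.64. Tmigd1, an adhesion molecule of the enterocyte brush border, had the highest ratio at 3.28, with 52.2, 179 and 252 CPM in high-share libraries and 7.002, 18.4 and 137 CPM in the rest. Slc9a3, the sodium-proton exchanger of the apical membrane, followed at 1.61. Guca2b, encoding uroguanylin, had the lowest ratio, -0.48. General epithelial genes had a median of 0.17, with 12 of 17 positive and none without overlap, and a median that was just below 0 with no further scaling and was -0.26 in FPKM and -0.58 in set X alone.

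Genes of crypt stem cells and of dividing cells were low. Of 14 crypt stem genes tested, 10 had a negative ratio, 6 were lower within all 5 groups, and Axin2, Sox9 and Ephb2 were lower without overlap. Sox9, a transcription factor of the crypt base, stood at 4.27, 11.02 and 19.5 CPM in high-share libraries and 27.1, 52.1 and 67.1 CPM in the rest, a ratio of -2.23. Rgmb, a receptor of bone morphogenetic proteins, went the other way, with 120 to 257 CPM in high-share libraries and 73.9 to 117 CPM in the rest. Lgr5, the stem cell receptor for R-spondins, was at 0.45 to 3.55 CPM in high-share libraries and 1.74 to 10.8 CPM in the rest. All 22 proliferation genes had a negative ratio (median -2.06); 7 were lower without overlap, among them the replication helicase genes Mcm2, Mcm3, Mcm4 and Mcm6. Mcm6 stood at 7.21, 10.2 and 20.6 CPM in high-share libraries and 26.6, 43.0 and 92.2 CPM in the rest. The mitotic kinase Cdk1 had the lowest ratio, -3.04, but its ranges overlapped by NCC_17 and NCC_2.

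Enteroendocrine genes were mixed. Of 14 tested, 10 had a negative ratio, with Insl5, a peptide of distal colonic L cells, at -3.21 and Gcg, the glucagon precursor, at -2.63. In both, JHHCGX_256 lay within the range of the rest, at 93.1 CPM for Insl5 and 36.5 CPM for Gcg. Sst, encoding somatostatin, was higher without overlap, at 103, 146.6 and 344 CPM in high-share libraries and 6.96, 31.5 and 101 CPM in the rest. Somatostatin is made by enteric neurons as well as by endocrine D cells.

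**Figure D3:**
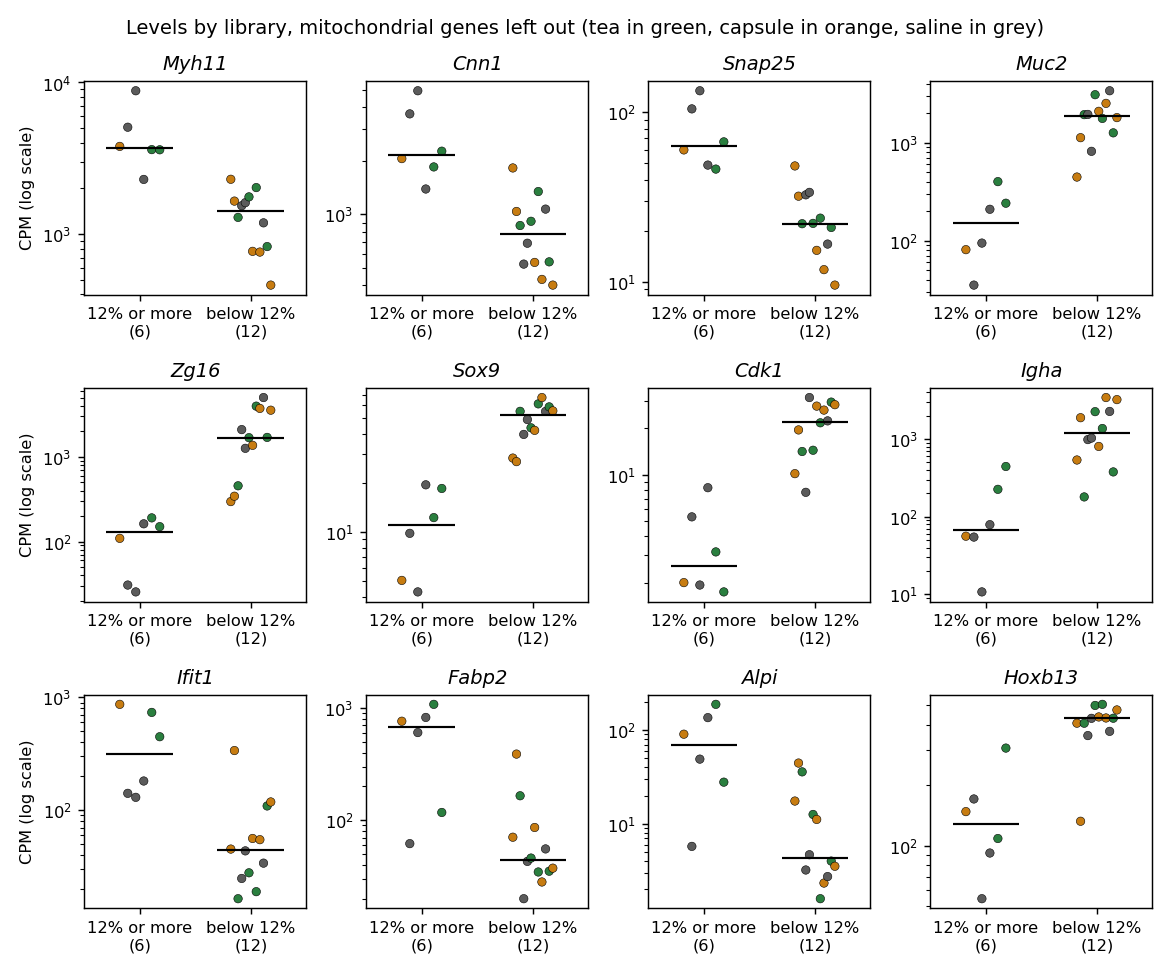
CPM on a log scale (vertical axis) of 12 genes in the 6 high-share libraries (left of each panel) and the 12 others (right); points are libraries coloured by treatment and horizontal lines are medians. Muc2, Zg16 and Sox9 do not overlap, Myh11 overlaps by 1 library at each end, and Alpi, Fabp2 and Ifit1 each spread widely among the 6.

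Ranked over all genes without overlap and with at least 10 CPM in the higher kind, the 10 with the highest ratios were Hhatl, Clvs2, Epha7, Grp, Sst, Rgs1, Apol6, Ppm1e, Rgs6 and Tacr2. Their ratios ran between 1.93 and 3.04. Grp, the gastrin-releasing peptide of enteric neurons, stood at 34.5, 56.0 and 116 CPM in high-share libraries and 2.39, 10.4 and 31.7 CPM in the rest. Tacr2, the neurokinin receptor of gut smooth muscle, stood at 22.2, 34.4 and 74.8 CPM in high-share libraries and 4.02, 8.99 and 18.1 CPM in the rest. The 10 with the lowest ratios were Reg4, Best2, Agr2, Zg16, Sval1, Muc2, Spink1, Tpsg1, Hepacam2 and Pla2g2f, between -4.89 and -3.42. Reg4, a secreted lectin of deep crypt secretory cells, stood at 3.35, 10.3 and 47.7 CPM in high-share libraries and 64.0, 308 and 947 CPM in the rest. Best2, a bicarbonate channel of colonic goblet cells, stood at 0.53, 2.17 and 4.67 CPM in high-share libraries and 5.22, 38.1 and 90.6 CPM in the rest.

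Genes that mark position along the bowel differed as well, though not evenly over the 6 libraries. Alpi (ENSMUSG00000079440, chr1:87098002-87101606, minus strand), intestinal alkaline phosphatase, stood at 5.74, 69.7 and 188 CPM in high-share libraries and 1.59, 4.34 and 44.5 CPM in the rest. NCX_134 and JHHCGX_256 lay within the range of the rest and the other 4 above it. Fabp2, the intestinal fatty acid binding protein, showed the same split: 602 to 1072 CPM in NCC_17, NCX_147, FFZRC_24 and JHHCGC_48, against 62.0 CPM in NCX_134 and 117 CPM in JHHCGX_256, with 20.1 to 387 CPM in the rest. Cyp2c55, a cytochrome P450 of the proximal mouse colon, stood at 801.7 to 1498 CPM in those 4 libraries, at 238.04 CPM in NCX_134 and at 253 CPM in JHHCGX_256, with 29.5, 202 and 1160 CPM (lowest, median, highest) in the rest. The highest of the rest in all 3 genes was FFZRX_238.

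Hoxb13, a homeobox gene of the distal hindgut, ran the other way, at 54.6, 128 and 306 CPM in high-share libraries and 132, 430 and 505 CPM in the rest. Only FFZRX_238 among the 12 lay inside the range of the 6, and the log2 ratio was -1.75. Hoxd13 stood at 7.08, 22.2 and 112 CPM in high-share libraries and 13.5, 155 and 252 CPM in the rest, with FFZRX_238, JHHCGX_129 and FFZRX_139 as low as most of the 6. Scnn1b, a subunit of the epithelial sodium channel of the distal colon, was lower without overlap: at most 0.82 CPM in high-share libraries, with no count in NCX_147 and FFZRC_24, against 0.85, 6.82 and 22.9 CPM in the rest. A count of 0 allows up to 0.043 to 0.067 CPM at these depths, taken as 3 counts per library, which covers counting error only.

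The position lists did not move as blocks. Of 18 Hox genes of groups 3 to 8, 15 had a positive ratio (median 0.80) and Hoxb3 was higher without overlap, at 9.87 to 25.2 CPM in high-share libraries and 1.80 to 9.72 CPM in the rest. Of 13 tested Hox genes of groups 9 to 13, 7 were positive and 6 negative, and the median of 0.13 became -0.01 with no further scaling and -0.26 in FPKM. The summed level of these 13 was nevertheless lower, at 306, 403 and 564 CPM in high-share libraries and 375, 804 and 917 CPM in the rest. All 5 genes listed as proximal had a positive ratio (median 0.70), but the median was -0.35 in set X alone. Of the 7 tested genes listed as distal, 5 were negative, whereas Aqp8, a water channel, and Car4, a carbonic anhydrase, had ratios of 1.23 and 0.57. Among 25 tested genes of small-intestinal enterocytes, 11 ratios were positive and 12 negative with a median of 0.00. Their summed level was nevertheless 1385, 3044 and 4226 CPM in high-share libraries and 1134, 1562 and 2175 CPM in the rest. NCC_17, FFZRC_24, JHHCGC_48 and JHHCGX_256 lay above all 12 others on this sum, JHHCGX_256 at 2627 CPM beside its low Fabp2.

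**Figure D4:**
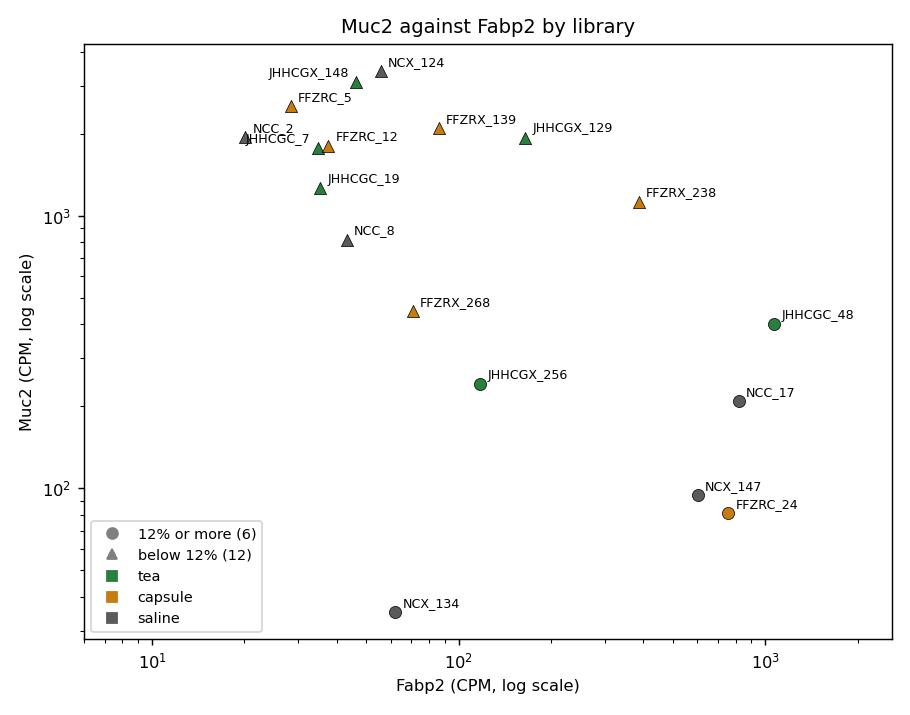
Muc2 against Fabp2 in CPM, both axes on a log scale, for 18 libraries; circles are the 6 high-share libraries, triangles the 12 others, and colours give the treatment. Muc2 separates circles (at most 401 CPM) from triangles (at least 446 CPM), whereas Fabp2 does not, with NCX_134 and JHHCGX_256 at 62.0 and 117 CPM and FFZRX_238 at 387 CPM.

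Lymphoid markers were low. All 9 B cell genes had a negative ratio with a median of -3.42, and 7 were lower within all 5 groups, but none was free of overlap. Cd79a, a chain of the B cell receptor complex, stood at 0.41, 5.03 and 43.9 CPM in high-share libraries and 5.97, 59.7 and 123 CPM in the rest; NCX_134 was the highest of the 6 and FFZRX_139 the lowest of the 12. All 9 T cell genes were negative (median -1.85), but 0 of the 9 were lower within all 5 groups. Of 8 plasma cell genes 6 were negative (median -2.48) and 2 were lower within all 5 groups. Igha, the constant region of immunoglobulin A, stood at 10.8, 67.6 and 443 CPM in high-share libraries and 180, 1197 and 3416 CPM in the rest. Reads of immunoglobulin genes can be shared between near-identical segments, so this level is uncertain. Among 10 macrophage genes 8 were negative (median -0.78), and C1qc, a complement component, and Cd68, a lysosomal protein, were lower without overlap.

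Interferon response genes were higher. All 12 had a positive ratio (median 2.18) and 9 were higher within all 5 groups, but none was free of overlap. Their summed level was 2019, 3570 and 8369 CPM in high-share libraries and 503, 850.2 and 4104 CPM in the rest. The 6 fell apart by treatment: FFZRC_24, JHHCGC_48 and JHHCGX_256 held 4896 to 8369 CPM, whereas the saline libraries NCC_17, NCX_134 and NCX_147 held 2019 to 2245 CPM. FFZRX_238 (4104 CPM) and JHHCGC_19 (3288 CPM) exceeded these saline libraries. This split by treatment was seen in the values and was not tested.

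Ifit3, an inhibitor of viral translation, had the highest ratio of the list, 3.02, at 42.8, 158 and 382 CPM in high-share libraries and 8.72, 19.3 and 136 CPM in the rest. Isg15, a ubiquitin-like modifier, stood at 92.1, 318 and 879 CPM in high-share libraries and 18.8, 39.5 and 417 CPM in the rest. Ifit1, which binds foreign RNA ends, stood at 129.7, 314 and 867 CPM in high-share libraries and 16.4, 44.3 and 337 CPM in the rest. Gbp4, a guanylate-binding protein, differed least, with a ratio of 0.08. The promoters of Ifit1, Ifit3 and Isg15 are shown because such genes are known to share the interferon-stimulated response element. They span 250 bases before to 50 after the start of the gene in RefSeq (GRCm38.p6), on the strand of the gene, with matches to the core of that element in capitals. The core searched was GAAA, any 2 bases and GAAA, on either strand, and overlapping matches are joined.
Ifit1 (chr19:34640639-34640938, plus strand): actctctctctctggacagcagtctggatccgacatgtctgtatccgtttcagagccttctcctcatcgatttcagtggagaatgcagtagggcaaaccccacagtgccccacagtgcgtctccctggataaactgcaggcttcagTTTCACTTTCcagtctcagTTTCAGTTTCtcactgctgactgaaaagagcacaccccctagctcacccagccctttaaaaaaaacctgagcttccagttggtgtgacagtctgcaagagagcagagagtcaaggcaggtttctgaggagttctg
Ifit3 (chr19:34583279-34583578, plus strand): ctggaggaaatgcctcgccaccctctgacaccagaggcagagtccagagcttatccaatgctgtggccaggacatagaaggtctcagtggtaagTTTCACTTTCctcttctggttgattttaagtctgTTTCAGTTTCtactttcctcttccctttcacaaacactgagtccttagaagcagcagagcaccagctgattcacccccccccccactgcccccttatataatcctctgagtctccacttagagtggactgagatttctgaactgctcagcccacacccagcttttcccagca
Isg15 (chr4:156200769-156201068, minus strand): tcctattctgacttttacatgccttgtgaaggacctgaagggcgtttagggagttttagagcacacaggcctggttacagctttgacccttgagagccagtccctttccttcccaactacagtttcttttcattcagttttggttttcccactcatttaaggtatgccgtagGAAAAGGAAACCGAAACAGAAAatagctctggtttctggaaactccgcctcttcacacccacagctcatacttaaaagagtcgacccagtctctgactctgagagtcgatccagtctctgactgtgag
The motif was found in 5 of the 8 interferon response promoters matched, in 1 of 18 matched smooth muscle promoters and in 1122 of 32544 promoters (3.45%) of the same length. The CArG box, the serum response factor motif of smooth muscle genes, was found in 1 of the 18 smooth muscle promoters and in 1.64% of all promoters. These matches describe letters in a window and are not measured binding.

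Ribosomal protein genes were lower as a family: all 86 tested had a negative ratio, with a median of -1.07, and 63 were lower within all 5 groups. Only Rpl14 and Rps3a1 were lower without overlap, 2 of 86 and thus close to the 2.02% of all genes. Reads of ribosomal protein genes can be shared with processed copies. Nuclear genes of oxidative phosphorylation, whose products join the mitochondrially encoded subunits, were not higher beside the high mitochondrial share. Of 86 tested, 78 had a negative ratio with a median of -0.25, but 9 were lower within all 5 groups and 1 without overlap, neither share above that of all genes (11.7% and 2.02%). The median was 0.11 in capsule C and 0.03 in saline C, so the direction was not shared by all groups. The gene without overlap was Ndufs8, a subunit of complex I, at 44.8 to 59.6 CPM in high-share libraries and 60.4 to 91.1 CPM in the rest. Heat shock genes had a median of 0.27, which became -0.14 in FPKM, while the median of their summed level was lower in high-share libraries (2408 CPM) than in the rest (2667 CPM), and immediate early genes 0.05, which became -0.02 with no further scaling and -0.30 in FPKM. Nuclear-retained RNAs, with 4 genes, had a median of 0.26, which became -0.03 in FPKM.

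**Figure D5:**
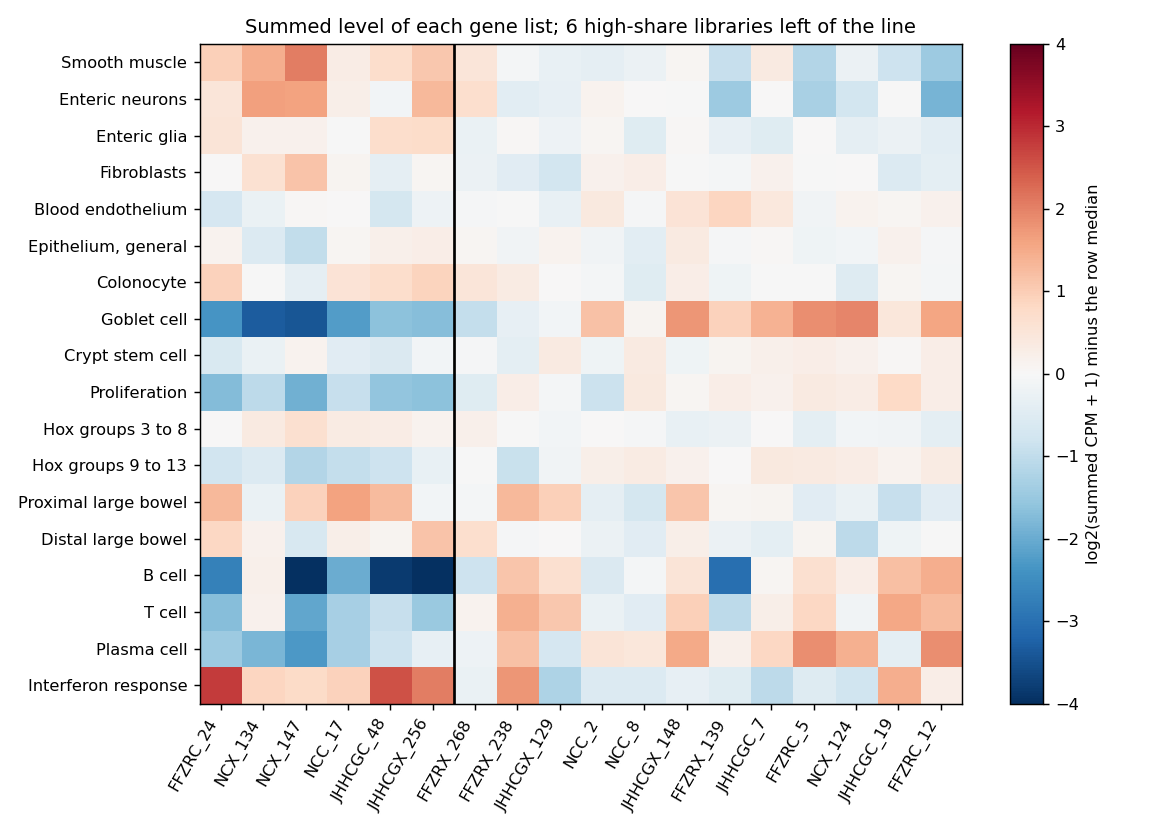
Summed CPM of 18 gene lists (rows) in 18 libraries (columns, the 6 high-share libraries left of the line, each kind from high to low mitochondrial share), as log2(sum + 1) minus the median of the row; red is higher and blue lower. Goblet cell and proliferation sums are blue in all 6 high-share columns, whereas B cell genes are not low in NCX_134 and the interferon row is also red in FFZRX_238.

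Across all genes, Spearman's rho between 2 high-share libraries was 0.947 to 0.965, between a high-share and another library 0.885 to 0.965, and between 2 others 0.949 to 0.982. These are correlations across genes, which are not independent. NCX_147 held the most smooth muscle, mesothelium (201 CPM) and Cajal cell (463 CPM) transcript and almost no B cell transcript (3.26 CPM). NCX_134 held 233 CPM of B cell genes, inside the range of the rest (24.2 to 561 CPM), beside the lowest Muc2 of all. NCC_17 carried cartilage, adipocyte and skeletal muscle genes at sums of 173, 1204 and 398 CPM, levels close to those of the saline libraries NCC_2 and NCC_8 except for skeletal muscle in NCC_2 (911 CPM).

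Within treatment-and-set groups the muscle and goblet directions held in all 5 groups with both kinds. The median log2 ratio of the goblet list was -2.15 in tea C, -2.09 in tea X, -3.12 in capsule C, -2.57 in saline C and -4.24 in saline X. For smooth muscle it was 0.83 in tea C, 1.22 in tea X, 2.17 in capsule C, 0.47 in saline C and 2.0 in saline X. Each group holds 3 libraries, so each of these values sets 1 or 2 libraries against the remainder. Enteric neuron genes were close to level in tea C (0.11) and saline C (0.34).

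No comparison of the mitochondrial share between treatments or sets passed the test. It averaged 8.97% ± 3.19 in tea and 12.1% ± 5.58 in saline libraries (SD, n = 6 each), a difference of -3.17 percentage points (exact permutation test within sets, two-sided, p = 0.245, adjusted over 4 comparisons 0.7955). Capsule libraries averaged 10.7% ± 7.32, a difference from saline of -1.41 points (exact permutation p = 0.765, adjusted 0.7955). Tea minus capsule was -1.76 points (exact permutation p = 0.77, adjusted 0.7955) and became 1.07 points without FFZRC_24. Set X averaged 10.99% ± 4.63 and set C 10.2% ± 6.43 (SD, n = 9 each), a difference of 0.76 points (exact permutation within treatments, p = 0.7955, adjusted 0.7955). The smallest p the design allows is 0.005 between treatments and 0.00025 between sets.

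Counts of genes called between treatments changed with how the 6 libraries were handled, but also on leaving out single libraries of either kind. With all 18 libraries, edgeR's quasi-likelihood test called 113 genes (0.506%) between tea and saline at an adjusted p under 0.05, 9 higher and 104 lower in tea. With the 6 left out it called 3 (0.0124%), none of them among the 113. With a term for high-share libraries it called 1068 (4.79%), all 113 included. The biological coefficient of variation was 0.589 with all libraries, 0.465 without the 6 and 0.483 with the term, and the residual degrees of freedom were 12, 6 and 11. Since the 6 were chosen from the same counts, the term removes variation that the counts themselves defined. Leaving out the 6 also left saline X with 1 library. With single libraries left out, the count between tea and saline was 0 without NCC_2 or JHHCGC_7, both below 12%. It was also 0 without the high-share libraries NCC_17 or NCX_147, but 210 without FFZRC_24 and 245 without JHHCGC_48.

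Between capsule and saline 1 gene was called (0.00448%), Uty, with 1 gene, a different one, without the 6 (0.00413%) and 5 with the term (0.0224%). Between tea and capsule none was called (0%; 1998 genes had an unadjusted p under 0.05 in edgeR, and DESeq2 called 286), with 2 without the 6 (0.00827%) and 11 with the term (0.0493%). In the main fit, none of the 23 smooth muscle, 18 goblet cell, 22 proliferation or 12 interferon response genes was called in any of the 3 comparisons. At most 0.506% of all genes were called there, so this is close to the share of all genes and no result about these lists. With the term, 1 of the 18 goblet cell genes was called, higher in tea than in saline, beside 4.79% of all genes. The term was set from the same counts, so this call is no result about the list.

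The 5 genes with the smallest p between tea and saline were Uty, Zeb2, Sbsn, Ddx3y and Lpin1. Zeb2, a transcription factor of mesenchymal and immune cells, fell in tea, at 10.2 ± 1.95 CPM in tea C, 6.99 ± 1.59 in tea X, 17.7 ± 1.36 in saline C and 20.2 ± 5.32 in saline X (SD, n = 3 each). Its log2 fold change was -1.16 (SE 0.16, edgeR adjusted p = 0.0320), -0.87 without the 6 and -1.19 with the term. Lpin1, a phosphatidate phosphatase, fell by 0.92 on the log2 scale (SE 0.14, edgeR adjusted p = 0.0320), and its log2 fold change was -0.94 without the 6 (adjusted p = 0.166). Sbsn, a protein of squamous epithelium, had a log2 fold change of -1.55 (SE 0.23, edgeR adjusted p = 0.0320), beside a summed squamous marker level of 5.71 to 106 CPM in high-share and 6.54 to 176 CPM in other libraries, whose part was not tested. Uty and Ddx3y are genes of the Y chromosome. Uty stood at 8.77 to 30.3 CPM in set X and 0.11 to 1.75 CPM in set C. Ddx3y stood at 18.2 to 68.3 and 0.25 to 4.56 CPM. Uty averaged 0.20 CPM in capsule C against 1.64 in saline C, and 20.7 CPM in capsule X against 29.0 in saline X. Kdm5d, also of the Y chromosome, averaged 0.16 against 2.43 CPM in set C but 43.1 against 39.3 CPM in set X. The capsule fold changes of these genes, averaged over sets, thus rest largely on low levels in set C. Between capsule and saline Uty had a log2 fold change of -1.77 (SE 0.23, edgeR adjusted p = 0.0335) and -1.87 without the 6 (adjusted p = 0.119), where residual degrees of freedom were 6 and not 12, and Ddx3y, Kdm5d, Crispld1 and Eif2s3y followed at adjusted p = 0.0679. Between tea and capsule the 5 smallest p belonged to Top1, Zfp280d, Zfp638, Zfp930 and Tcf4, each at an edgeR adjusted p of 0.172. Top1, a DNA topoisomerase, had a log2 fold change of -0.75 (SE 0.13), -0.74 without the 6 and -0.76 with the term.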

How the data were processed

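Messenger RNA of mouse colon was sequenced after oligo(dT) capture, per the labels' protocols. The deposited table gives counts per gene, not normalized, and FPKM values made by the authors, per the file headers. The submitters' processing notes list cutadapt 1.9, HISAT2 2.0.4, StringTie 1.3.4d and edgeR, without their roles, and the build hg38; the table's IDs are mouse, and 30908 of 33977 genes have the coordinates of GENCODE vM21 (GRCm38). The sources used here do not say whether reads were counted by strand.

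From the counts, levels were computed in R 4.3.3 with edgeR 4.0.16: mitochondrial genes and 4 nuclear copies were left out, genes filtered (filterByExpr, minimum count 10) and libraries scaled by TMM. High-share and other libraries were described by medians (pseudocount 0.1 CPM) and by overlap. Treatments were compared by edgeR's quasi-likelihood test over 6 treatment-and-set groups, averaged over sets, with Benjamini-Hochberg adjustment; the test was checked on simulated data. DESeq2 1.42.0 was an alternative. The mitochondrial share was tested by exact permutation in Python 3.11.15. No 2 libraries held the same values (highest Spearman's rho 0.982).

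The 6 libraries and all gene lists were chosen with earlier results of these data known. Named genes are the 4 markers, up to 4 members per list with the largest ratios plus members that define a list, the 10 highest and 10 lowest ratios without overlap, and the 5 smallest p per treatment comparison. Members named beyond these were chosen after their values were seen. One gene of the lists is not reported here.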

Additional observations from a re-analysis of the deposited data

Results flagged for a closer look

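In 53 sets of values examined for a library far from the others, 11 had one. A chance rate of about 1 in 20 would need independent sets. These sets share the same libraries, so the count shows no excess over chance. Among capsule libraries FFZRC_24 stood apart with a mitochondrial share of 24.9%, the same value that placed it among the 6. Among the 6 high-share libraries, NCX_147 stood apart in Cajal cell (463 CPM) and mesothelium genes (201 CPM). NCX_134 stood apart in T cell genes (48.3 CPM), B cell genes (233 CPM) and nuclear-retained RNAs (2745 CPM). NCC_17 stood apart in adipocyte (1204 CPM), skeletal muscle (398 CPM), cartilage (173 CPM) and squamous genes (106 CPM). FFZRC_24 stood apart in pancreas genes, at 6.63 CPM over 2 genes tested.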

How the results depend on the processing

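Counts of genes higher and lower without overlap were 332 and 451. Of these, the higher count was 159 with no further scaling, 730 at a threshold of 15% and 187 at 10%. Both moved in FPKM (90 and 1074), in set C alone (2529 and 3254), in set X alone (1993 and 1562) and in the 4 high-share and 3 other libraries without lung or cartilage transcripts (2857 and 3459), an alternative chosen after seeing the data; fewer libraries overlap less by construction. Leaving out 1 library gave 335 to 520 higher and 455 to 767 lower genes. The higher count was 520 without FFZRX_268, 500.0 without JHHCGC_48 and 510.0 without JHHCGX_256, and the lower count 678 without NCC_17, 767 without FFZRX_238 and 679 without JHHCGX_256.

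Of 360 list medians under the other alternatives, 332 moved less than the spread between libraries, 25 moved more, and 3 values that had exceeded this spread reversed: colonocyte (-0.0176 at 15%, -0.13 in set X alone) and proximal large bowel (-0.35 in set X alone). Counting medians near 0 as well, 37 of the 360, from 13 lists, changed sign. The smooth muscle and goblet medians kept their sign under every alternative run. Smooth muscle reached 2.48 in the libraries without lung or cartilage transcripts, where the 3 others held no saline library.

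Leaving out 1 library moved the share difference between -4.40 and -1.83 points for tea against saline, -4.24 and -0.06 for capsule against saline, -2.81 and 1.07 for tea against capsule, and -0.22 and 2.59 for X against C. The set difference was -0.22 without NCX_134 and -0.038 without NCX_147. Tea minus saline was 2.74 points lower in set X than in set C (-2.74, exact permutation p = 0.64; added after seeing the data).

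Genes called between tea and saline numbered 60 with RLE scaling, 1 without a filter and 1362 with DESeq2, beside 3 and 1068 (without the 6 and with a term), and 0 to 458 on leaving out 1 library: 458 without NCX_124, 210.0 without FFZRC_24, 245 without JHHCGC_48, and under 10 without 12 of the 18. Capsule against saline gave 145 with DESeq2, 5 with the term and 0 to 10 on leaving out 1 library, the highest without FFZRC_24. Tea against capsule gave 2 without the 6, 11 with the term and 286 with DESeq2, and 0 to 28 on leaving out 1 library, with 28 without JHHCGC_48. The cause of these moves was not tested. No paired analysis was possible because no replicate number is shared between groups. Depth limits statements on genes near 0.05 CPM.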
